A study of Mus musculus with 11 samples.

Results

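The NR4A and EGR factors are transcription factors whose genes are switched on quickly when the T cell receptor signals. The set held 6 genes, Nr4a1, Nr4a2, Nr4a3, Egr1, Egr2 and Egr3, of 18193 genes measured, and they were represented by 15 of 34945 probe sets that carry 1 gene symbol. They were taken by name with every probe set, and each gene is given by its brightest probe set, judged by the mean of the 11 arrays. This set and the gene lists below were chosen with earlier results of these data known, so their shares of called genes are descriptions. Each array was hybridised with RNA of CD4 T cells that had been enriched by positive selection and sorted on GFP from spleen and lymph node of mice aged 6 to 8 weeks. TN (n = 3) held naïve Foxp3-negative CD4+ T cells, Treg (n = 5) held Foxp3-positive CD4+ T cells, and GFPKO (n = 3) held GFP+ CD4+ T cells of Foxp3GFPKO/WT mice. The labels do not describe that allele further; its name reads as a Foxp3 knockout that carries GFP beside a wild-type allele. The strain, and the allele that marked Foxp3 in the TN and Treg mice, are not given in the sources used here. Nor do the labels say that replicates were drawn from different animals. The p-values then reflect only how much these samples vary, and that variation may be technical.

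NR4A proteins are nuclear receptors that act without a known natural ligand and bind DNA as monomers at the NBRE, AAAGGTCA, or as dimers. EGR proteins bind GC-rich DNA through zinc fingers and are held back by the co-repressors NAB1 and NAB2. In T cells the calcium and MAP kinase branches of receptor signalling induce both families, and a Nr4a1 reporter is widely used as a gauge of receptor signal strength. NR4A factors are known to promote Foxp3 expression during regulatory T cell development, and EGR2 and EGR3 are known for genes that restrain T cell activation.

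Nr4a1, Nr4a3 and Egr2 were higher in Treg than in TN, and Nr4a1 and Egr2 were also higher in GFPKO than in TN. The 3 rises in Treg lay between 0.90 and 1.28 on the log2 scale, and the 2 rises in GFPKO at 0.83 and 0.95. No member was called lower than TN, where 3.42% of all genes were called lower in Treg and 3.02% in GFPKO, and none was called between Treg and GFPKO. For Treg minus TN 3 of 6 members were called higher at an adjusted p under 0.05 in limma, against 6.54% of all genes called higher and 9.97% called in either direction. For GFPKO minus TN it was 2 of 6, against 2.64% called higher and 5.66% in either direction. The median log2 difference of the 6 genes was 0.63 in Treg and 0.58 in GFPKO, where the median of all genes was 0.03 and -0.04. For 4 of 6 members, Nr4a1, Nr4a3, Egr1 and Egr2, every Treg array lay above every TN array, which held for 11.7% of all genes, and 7.84% lay wholly below. For the same 4 every GFPKO array lay above every TN array, which held for 7.06% of all genes. Both comparisons use the same 3 TN arrays. In bulk RNA a larger share of cells that express a gene and more RNA per cell cannot be told apart.

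**Figure D1:**
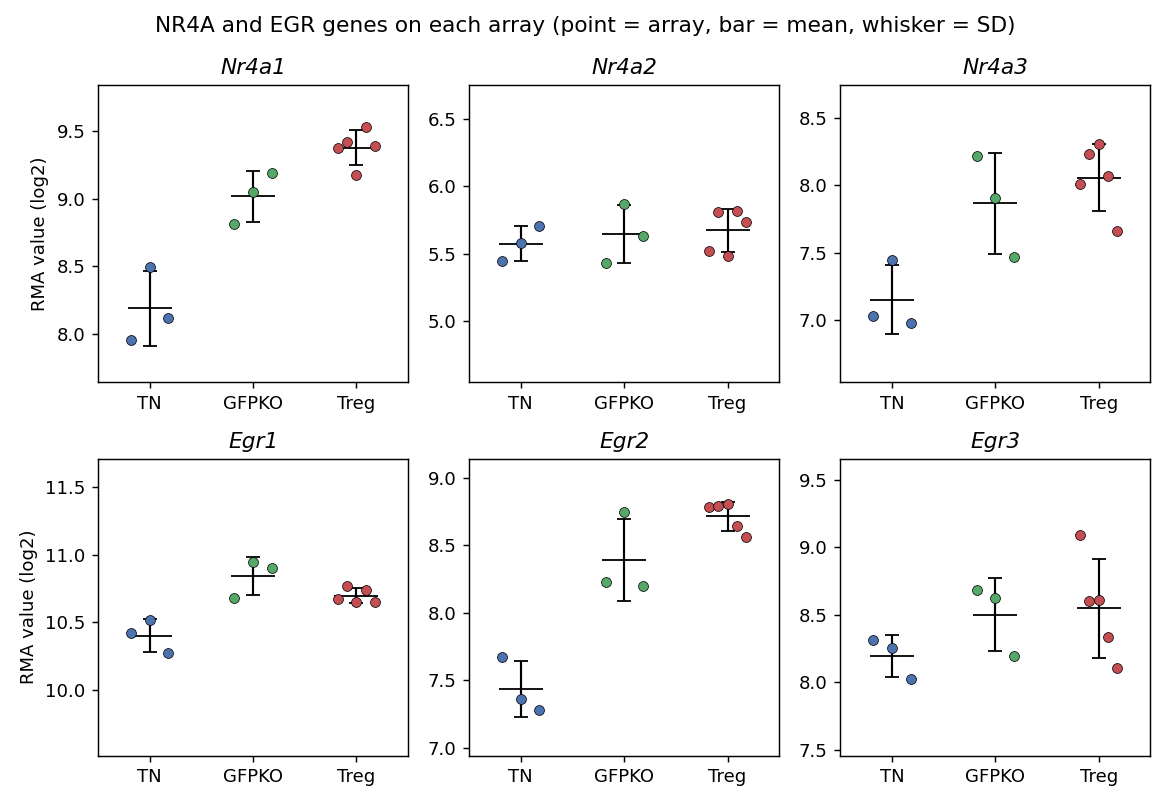
Log2 RMA value of the brightest probe set of each gene on each array, by group; each point is an array, the bar is the mean and the whisker the SD, and every panel spans the same log2 range at its own level. For Nr4a1, Nr4a3, Egr1 and Egr2 no TN array reaches a Treg or GFPKO array, while the groups overlap for Nr4a2 and Egr3.

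The labels were checked before these values were compared. The Foxp3 probe set read 6.75 to 7.19 in GFPKO but 3.29 to 3.64 in the arrays labelled Treg and 3.12 to 3.99 in TN. This goes against the Treg label, and the place of the probe set relative to the altered alleles is not known, so each direction given for Treg rests on the label. Other genes that mark regulatory T cells ran the way the label says, with Ctla4 at 10.16 in Treg against 5.81 in TN, Ikzf2 at 10.68 against 6.60 and Il2ra at 9.18 against a TN mean at background. They were high in GFPKO too, at 9.66, 10.41 and 8.41, so they set both groups apart from TN. The highest Foxp3 value in TN, 3.99, is used as the background level. Xist, the RNA of the inactive X chromosome, read 11.07 to 11.85 in GFPKO and at most 3.96 in the other groups, so sex and genotype cannot be told apart in any comparison with GFPKO. Of 9 T cell markers, all lay above background in each group. Among 15 markers of myeloid and dendritic cells, Treg had 8 called lower and 2 called higher than TN, and GFPKO had 9 called lower. Their summed linear signal was 2001 to 3303 in TN, 661 to 820 in Treg and 368 to 550 in GFPKO, with Cd14, Itgam and Clec4a2 at background in all groups. The brightest of them in TN was H2-Aa, at 10.56 against 6.19 in Treg and 5.34 in GFPKO. The 2 called higher in Treg were Cybb (5.60 to 7.23) and Lyz2 (5.58 to 7.02). NK cell markers summed to 944 to 1176 in TN, 174 to 187 in Treg and 141 to 180 in GFPKO, where 4 of 7 were lower in Treg and 5 of 7 in GFPKO than in TN. Ncr1 and Klrk1 were at background in all groups. The brightest in TN were Klrd1 (8.83), Prf1 (7.92) and Tyrobp (7.87), the last of which is also in the myeloid list. Of 9 B cell markers 5, among them Cd79a and Ms4a1, were at background in all groups, and the sum was 377 to 430 in Treg against 180 to 209 in TN and 162 to 203 in GFPKO. In Treg against TN 2 of the 9 were called higher, Cd79b (4.36 to 7.63) and Bank1 (5.02 to 6.05), and 1, Ms4a1, lower. In GFPKO against TN only Cd79b was called higher, and Ms4a1 and Cd22 were called lower. Cd8a and Cd8b1 of CD8 T cells summed to 198 to 236 in TN, 164 to 202 in Treg and 141 to 191 in GFPKO. Of 5 erythroid and platelet markers 4 were at background in all groups. The actin 3′ minus 5′ difference, a gauge of RNA integrity, was 0.45 to 0.83 in GFPKO, 0.38 to 0.53 in TN and 0.44 to 0.61 in Treg. The part of the cell marker differences in the member values was not tested. For RNA integrity the members were refitted with the actin difference as a covariate. In that refit 3 members were called higher in Treg than in TN. Nr4a1 and Egr2 were called in it for both comparisons with TN. Treg array medians over genes, each by its brightest probe set, lay 0.14 above those of TN and 0.17 above those of GFPKO on the log2 scale. Medians over all 45101 probe sets overlapped, at 4.075 to 4.161 in Treg, 4.087 to 4.137 in TN and 4.102 to 4.137 in GFPKO. Centring arrays on their medians over genes lowers every Treg difference by 0.14 against TN and 0.17 against GFPKO. With it 904 genes were called higher and 1174 lower in Treg than in TN, against 1190 and 623 without it, and 675 higher and 899 lower than in GFPKO, against 1252 and 464.

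Nr4a1 encodes the orphan nuclear receptor NUR77. It read 7.95, 8.50 and 8.12 in TN replicates 1 to 3, and 8.82, 9.05 and 9.19 in those of GFPKO. In Treg it read 9.37, 9.42, 9.17, 9.53 and 9.39. All 3 TN arrays were below all others, and Treg replicate 3 alone fell inside the GFPKO range. Nr4a1 was 2.28-fold higher in Treg than in TN (log2 fold change 1.19 ± 0.14 SE, limma adjusted p = 2.9e-05) and 1.78-fold higher in GFPKO than in TN (0.83 ± 0.16, adjusted p = 0.0046). Treg exceeded GFPKO by 0.36 ± 0.14, with a 95% interval of 0.06 to 0.66 that is not adjusted for the number of genes, but this difference was not called (adjusted p = 0.14). The order was thus TN, GFPKO and Treg, with the last pair not separated by the test. Nr4a1 has 1 probe set.

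The 250 bases before the Nr4a1 start site (RefSeq, GRCm38.p6, chr15:101266596-101266845, plus strand) are shown because this gene was called in both comparisons with TN. Capitals mark TGACG, the core of the cAMP response element, read on either strand, and 1 match of GCGGGGGCG, a form of the EGR binding site.

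Nr4a1: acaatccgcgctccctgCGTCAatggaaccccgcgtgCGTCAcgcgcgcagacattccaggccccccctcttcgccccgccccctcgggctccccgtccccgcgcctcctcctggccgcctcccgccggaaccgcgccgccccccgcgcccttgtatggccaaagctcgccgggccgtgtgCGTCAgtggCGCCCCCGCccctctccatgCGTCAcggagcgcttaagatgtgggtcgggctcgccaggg

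TGACG occurred 4 times, all on the minus strand, with first bases at -233, -213, -69 and -40 from the start site. At least 4 matches in 250 bases were found in 0.137% of the 32851 promoters of the RefSeq table, and at least 1 in 17.8%. The EGR match, at -60, lies between both downstream TGACG copies, and 2.57% of promoters hold one. The windows of Nr4a2 (chr2:57123954-57124253, of which the upstream 250 bases were searched) and Nr4a3 (chr4:48045055-48045354, likewise) also held 4 TGACG matches each, none of them in the full palindrome TGACGTCA. None of the 3 NR4A windows held AAAGGTCA, GCGTGGGCG or a serum response element. AAAGGTCA was found in 1.34% of all promoters and GCGTGGGCG in 0.536%. GGAAA, the NFAT core, occurred once in Nr4a2 and not in Nr4a1 or Nr4a3, where 55.6% of all promoters hold it. The TGACG count was thus the same in Nr4a2, whose brightest probe set was not called, as in Nr4a1 and Nr4a3.

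Nr4a3, the NOR1 receptor, followed a similar course in its brightest probe set, 1438796_at. It read 7.03, 7.45 and 6.98 in TN, then 8.00, 8.23, 8.30, 8.07 and 7.66 in Treg. GFPKO arrays read 8.22, 7.90 and 7.47, so GFPKO replicate 3 was barely above TN replicate 2 while GFPKO replicate 1 lay inside the Treg range. The rise in Treg over TN was 1.87-fold (log2 0.90 ± 0.18, limma adjusted p = 0.0038). In GFPKO the difference from TN was 0.71 ± 0.21 and was not called (adjusted p = 0.059). It was called without GFPKO replicate 3 (0.91, adjusted p = 0.0099), without TN replicate 2 (0.86, adjusted p = 0.049) and without Treg replicate 5 (0.71, adjusted p = 0.043). Over 20 alternative settings this difference was called in 6, at 0.26 to 0.91 with adjusted p from 0.0025 to 0.52. Treg and GFPKO differed by 0.19, with a 95% interval of -0.20 to 0.58. The other Nr4a3 probe sets showed no such rise. Probe set 1421080_at lay above background at 5.00 ± 0.12 (SD, n = 3) in TN, 4.91 ± 0.25 (n = 5) in Treg and 4.89 ± 0.10 (n = 3) in GFPKO, a difference of -0.09 for Treg minus TN. Probe set 1421079_at was below background in all groups. The Nr4a3 call therefore rests on 1 of 3 probe sets, and with the mean of all 3 the Treg minus TN difference was 0.32 (adjusted p = 0.056).

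The Nr4a3 stretch with a pair of TGACG matches in opposite orientation 3 bases apart is shown for comparison with Nr4a1 (chr4:48045088-48045117, plus strand; capitals mark TGACG on either strand).

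Nr4a3: atgtCGTCAcatTGACGtctcgcattccag

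Nr4a2, the NURR1 receptor, has 6 probe sets, and none that lay above background was called. The brightest, 1433422_at, read 5.45 to 5.70 in TN, 5.48 to 5.82 in Treg and 5.44 to 5.87 in GFPKO, so the groups overlapped fully. Its log2 difference of Treg minus TN was 0.10 with a 95% interval of -0.19 to 0.39 (adjusted p = 0.78). GFPKO minus TN was 0.07, with an interval of -0.25 to 0.39 (adjusted p = 0.90). With arrays centred on their medians the small Treg minus TN value changed sign (-0.043). In contrast, probe sets 1455034_at and 1450750_a_at were called higher in Treg than in TN, by 1.05 (adjusted p = 0.0093 over all probe sets) and 0.46 (adjusted p = 0.025), where 7.99% of all probe sets were called. Probe set 1455034_at read 2.57, 2.51 and 3.17 in TN against 3.98, 3.39, 3.97, 4.31 and 3.36 in Treg, with no overlap. The Treg, TN and GFPKO means of both probe sets nonetheless lay below the background level, with the highest at 3.80. Probe set 1450750_a_at was also called higher in Treg than in GFPKO (0.42, adjusted p = 0.040). Differences between means at that level do not settle whether Nr4a2 RNA differs between the groups.

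**Figure D2:**
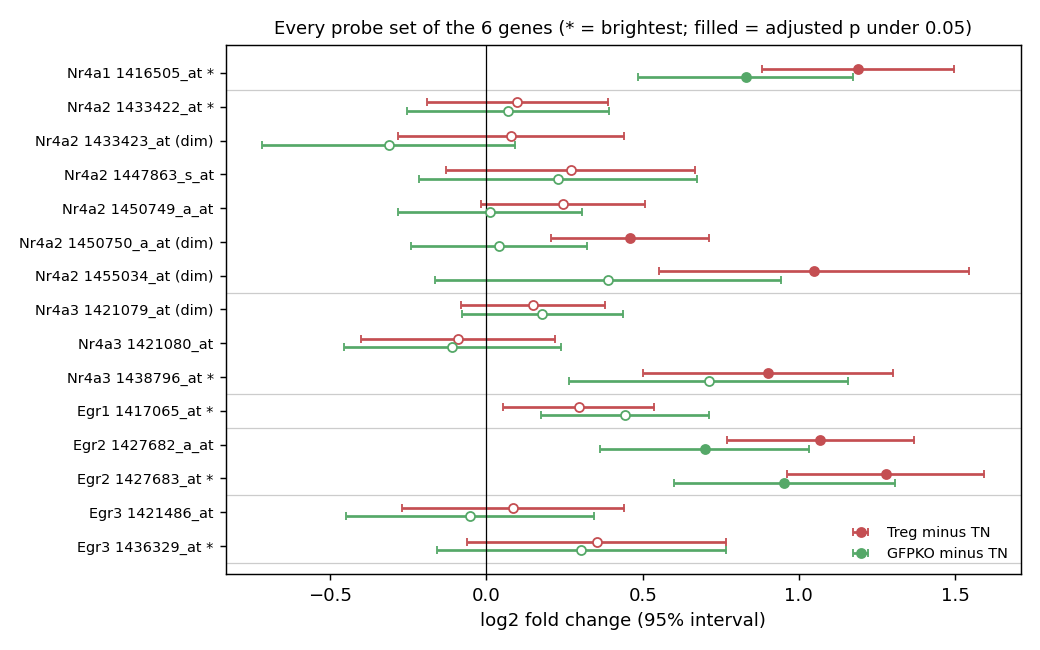
Log2 fold change (horizontal axis, with its 95% interval) of all 15 probe sets for Treg minus TN and GFPKO minus TN; an asterisk marks the brightest probe set of a gene, "dim" marks those with all 3 group means at or below the background of 3.99, and filled points have an adjusted p under 0.05 over all probe sets. Both Egr2 probe sets are filled in both comparisons, while Nr4a3 has 1 of 3 and Nr4a2 has 2 dim probe sets of 6 filled for Treg minus TN.

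Egr2, a zinc finger factor also known for its part in peripheral nerve myelination, showed the largest difference from TN among the brightest probe sets of the 6 genes, in Treg and in GFPKO. It read 7.67, 7.36 and 7.28 in TN, 8.78, 8.79, 8.80, 8.64 and 8.56 in Treg, and 8.23, 8.74 and 8.20 in GFPKO. GFPKO replicate 2 lay inside the Treg range, and the other two GFPKO arrays lay between TN and Treg. Egr2 was 2.43-fold higher in Treg than in TN (log2 1.28 ± 0.15, limma adjusted p = 1.8e-05) and 1.94-fold higher in GFPKO than in TN (0.95 ± 0.16, adjusted p = 0.0018). Treg exceeded GFPKO by 0.32 with a 95% interval of 0.01 to 0.64, not adjusted for the number of genes, and was not called (adjusted p = 0.20). The second probe set, 1427682_a_at, was called in both comparisons too, at 1.07 and 0.70 (adjusted p = 0.00013 and 0.019 over all probe sets), where 4.07% of all probe sets were called for GFPKO minus TN. Both probe sets correlated at r = 0.97 over the 11 arrays, a description of 2 readings of the same RNA.

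The RefSeq table listed 5 Egr2 start sites. A stretch upstream of the third (chr10:67537792-67537821, plus strand) is shown because it holds a serum response element, the site of the MAP kinase responsive factor SRF, 7 bases from a TGACG match on the minus strand. Both are in capitals.

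Egr2: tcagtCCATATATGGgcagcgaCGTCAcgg

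A serum response element was found in 1.47% of all upstream windows of 250 bases, and in 4 of the 5 Egr2 windows, of which the 3 most downstream overlap and share this copy. The 3 NR4A windows held none.

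Egr1, the factor also called ZIF268, changed less. TN arrays read 10.42, 10.51 and 10.28, Treg arrays 10.67, 10.77, 10.66, 10.74 and 10.65, and GFPKO arrays 10.68, 10.95 and 10.90. TN was the lowest group without overlap, and Egr1 was the only member with a higher mean in GFPKO (10.85 ± 0.14 SD, n = 3) than in Treg (10.70 ± 0.05, n = 5). The difference from TN was 0.29 ± 0.11 in Treg (limma adjusted p = 0.14) and 0.44 ± 0.13 in GFPKO (adjusted p = 0.054), and neither was called. Over 20 alternative settings the GFPKO value was called in 6, among them without GFPKO replicate 1 (0.52, adjusted p = 0.027), with adjusted p from 0.0010 to 0.22. The Treg value was called in 1 of 20, with array weights (0.28, adjusted p = 0.047). Treg minus GFPKO was -0.15 with a 95% interval of -0.39 to 0.09, so the order of these 2 groups is not resolved. Egr1 has 1 probe set.

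Egr3, the EGR factor that acts alongside EGR2 in restraining T cells, varied most within Treg. It read 8.31, 8.25 and 8.02 in TN, 9.09, 8.60, 8.61, 8.34 and 8.11 in Treg, and 8.68, 8.63 and 8.19 in GFPKO. Treg replicate 1 was the highest array and Treg replicate 5 lay inside the TN range. Treg minus TN was 0.35 with a 95% interval of -0.06 to 0.76 (limma adjusted p = 0.35), and GFPKO minus TN was 0.30 with an interval of -0.15 to 0.76 (adjusted p = 0.56). With the replicate number as a block Treg minus TN was called (0.57, adjusted p = 0.031). Only Treg has replicates 4 and 5, so that fit takes its difference from replicates 1 to 3. It leaves out the Treg arrays at 8.34 and 8.11. The dimmer probe set 1421486_at gave 0.08 and -0.05. Its correlation with the brighter one was r = -0.60 over the 11 arrays, so both did not track each other.

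**Figure D3:**
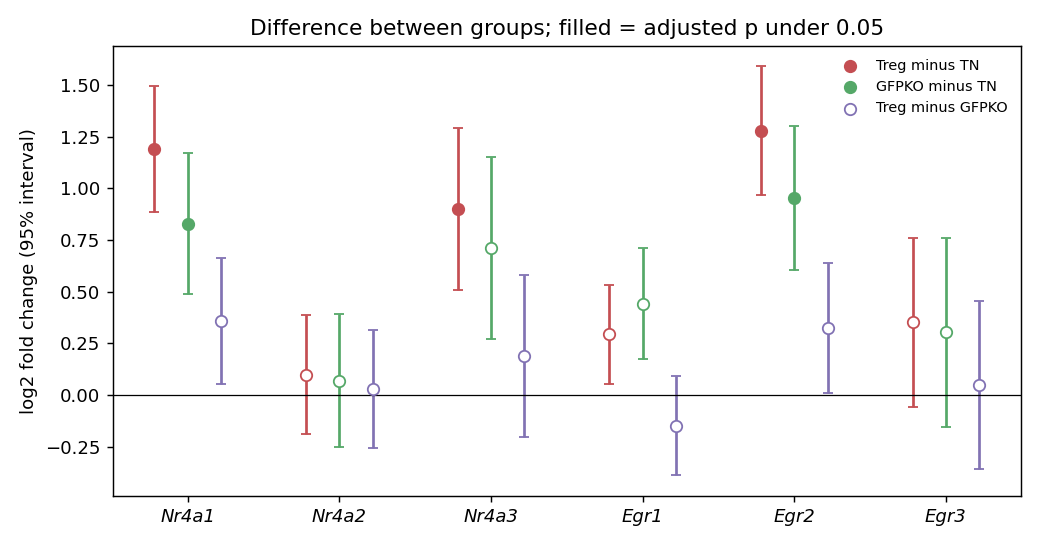
Log2 fold change of each gene by its brightest probe set, with the 95% interval, in the comparisons of Treg and of GFPKO with TN and of Treg with GFPKO; filled points have an adjusted p under 0.05 over 18193 genes. Nr4a1 and Egr2 are filled in both comparisons with TN, Nr4a3 in that with Treg, and no Treg minus GFPKO point is filled.

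Between Treg and GFPKO 0 of 6 members were called in limma, where 9.43% of all genes were called (6.88% higher and 2.55% lower in Treg). An unadjusted p under 0.05 was found for 2 of 6, Nr4a1 and Egr2, and for 4226 of all 18193 genes. No member had all Treg arrays above or below all GFPKO arrays, which held for 11.1% and 3.31% of all genes. With arrays weighted by their estimated quality Nr4a1 was called higher in Treg (0.32, adjusted p = 0.032) and Egr1 lower (-0.22, adjusted p = 0.045), in a setting that called 6756 genes in place of 1716. The intervals leave room for differences of up to 0.66 in Nr4a1 and 0.64 in Egr2.

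The members did not vary as 1 unit from array to array. After each group's mean was removed, the highest of 15 pairwise correlations over the 11 arrays was that of Nr4a1 with Egr1 (Pearson r = 0.67, Spearman rho = 0.71). Nr4a3 with Egr3 followed at r = 0.56 (rho = 0.55), Nr4a1 with Nr4a2 at 0.53 (0.54) and Egr2 with Egr3 at 0.52 (0.45). Nr4a1 with Egr2, both called in the same comparisons, gave r = -0.28 (rho = -0.28). These values describe deviations of arrays that share 1 normalisation, in groups of 3 and 5.

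Genes whose pattern over all 11 arrays was most like that of a member were taken from 2902 genes that were bright enough and differed by at least 0.5 between group means. The difference between groups enters these correlations. For Egr2 they were Gpr15 (r = 0.99, rho = 0.95), Chsy1 (0.99, 0.95) and Galm (0.98, 0.93). For Nr4a1 they were Prr13 (0.98, 0.97), Ecm1 (0.98, 0.94) and the interleukin 2 receptor chain gene Il2rb (0.97, 0.93). Nr4a3 was most like Lnx2 (0.96, 0.85), the growth factor receptor gene Igf1r (0.94, 0.85) and AU020206 (0.93, 0.89). Egr1 was most like Crmp1 (0.94, 0.81), Slc35g1 (0.93, 0.87) and Egln3 (0.92, 0.80), which like Egr1 had higher means in GFPKO than in Treg. Egr3 was most like Slc25a24 (0.93, 0.94), Hdgfl3 (0.91, 0.85) and Arhgap18 (0.91, 0.96). Nr4a2 had no match above r = 0.75, which was that of Thap4 (rho = 0.83), followed by the NF-kB subunit gene Nfkb2 (0.72, 0.78) and Zscan2 (0.71, 0.76).

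Other early genes of T cell receptor signalling were described with a list of 30 genes. In Treg against TN 13 rose and 1 fell (46.7% called, where 9.97% of all genes were), with a median log2 difference of 0.45. Rgs1, a brake on G protein signalling, went from 6.07 to 10.53 and Tnfrsf9, a co-stimulatory receptor, from 6.24 to 9.12. The transcription factor genes Bhlhe40 (5.34 to 7.90) and Irf4 (6.03 to 8.20) and the MAP kinase phosphatase gene Dusp1 (7.71 to 9.72) also rose. The AP-1 gene Fosl2 fell by 0.77, a call that was lost without any 1 of TN replicate 1, TN replicate 2, Treg replicate 2 or Treg replicate 4. In GFPKO against TN 11 rose and 2 fell (43.3%, against 5.66% of all genes), with a median of 0.28. Without GFPKO replicate 2 the counts were 7 and 1. A fit of only TN and GFPKO also gave 7 and 1. Rgs1 (4.28), Irf4 (2.28), Bhlhe40 (1.82), Tnfrsf9 (1.72) and Phlda1 (1.49) rose most, and the anti-proliferative gene Btg2 fell by 1.78. Fosl2 fell from 4.91 to a GFPKO mean below background, so its fall was at least 0.92.

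Other genes of the list, named here after their values were seen, did not pass the test. Fos, Fosb, Jun, Junb, Jund, Ier2, Ier3, Ier5, Csrnp1, Rcan1, Zfp36, Cd5 and Cd69 were not called in Treg against TN or in GFPKO against TN. Junb stood at 0.72 in Treg (limma adjusted p = 0.058) and Fos at 0.99 in GFPKO (adjusted p = 0.050). Fosb and Ier3 were below background in all groups. Between Treg and GFPKO 8 of the 30 were higher and 2 lower in Treg (33.3%, against 9.43% of all genes). The counts ran from 5 and 1 without GFPKO replicate 1 to 14 and 2 without GFPKO replicate 3. With arrays centred on their medians they were 5 and 3. Btg2 (1.44), Tnfrsf9 (1.16), Gadd45b (0.94), Dusp1 (0.81) and Nfkbid (0.77) were higher in Treg. Dusp6, an ERK phosphatase gene, was lower by 1.16 and Fos by 0.84. Dusp6 read 7.98 ± 0.07 in Treg (SD, n = 5), 7.99 ± 0.20 in TN and 9.14 ± 0.18 in GFPKO (n = 3 each).

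**Figure D4:**
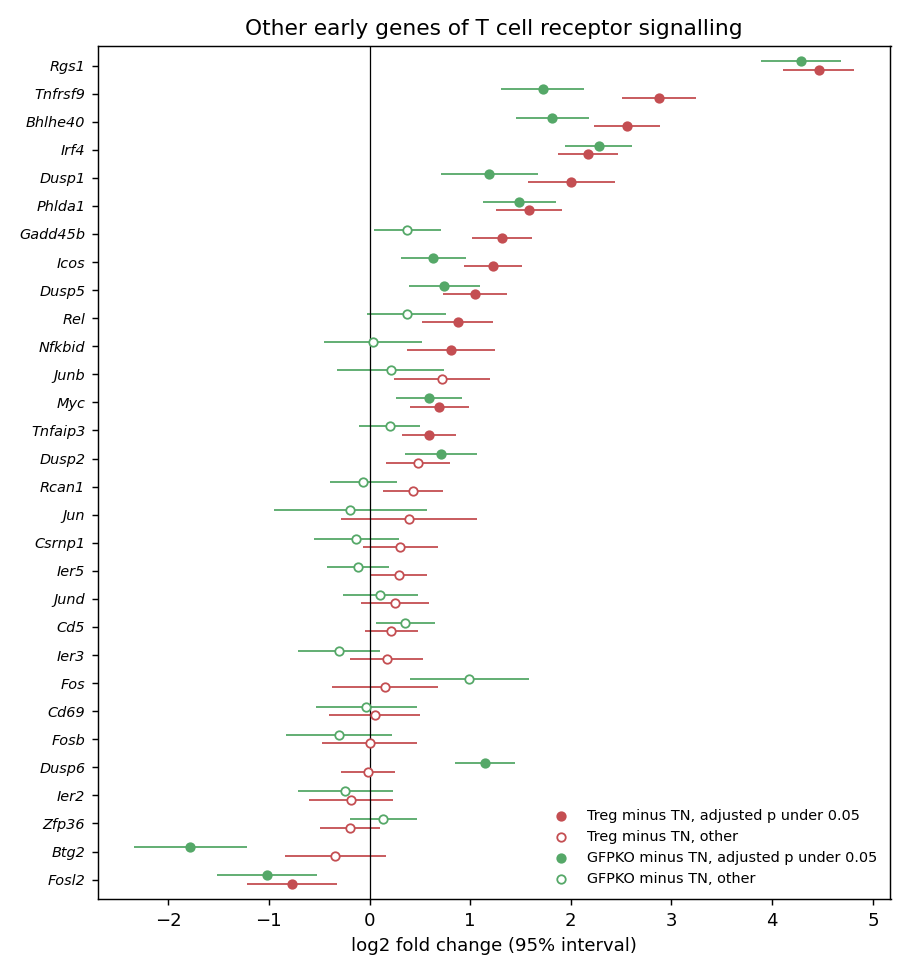
Log2 fold change with 95% interval for 30 other early genes of T cell receptor signalling in Treg minus TN and GFPKO minus TN, ordered by the former; filled points have an adjusted p under 0.05 over all genes. Rgs1, Tnfrsf9, Bhlhe40 and Irf4 lie at the upper end in both comparisons, and Fosl2 is filled below 0 in both.

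Of 16 partners and upstream factors of the 2 families, 2 rose and 0 fell in Treg against TN (12.5%, where 9.97% of all genes were called) and 1 rose in GFPKO against TN (6.25%, against 5.66%), so both shares were near the background. The medians were 0.03 and 0.04. In Treg against TN 7 of 16 had an unadjusted p under 0.05, as had 3623 of all 18193 genes. For 4 of 16, none of them called, every Treg array lay below every TN array, which held for 7.84% of all genes. These were Nab1, Nfatc3 and, named after their values were seen, Elk4 and Creb1. Elk3, an SRF partner of the ternary complex family, rose in both, from 8.48 in TN to 9.25 in Treg and 9.44 in GFPKO. Rxra, a dimer partner of NR4A1 and NR4A2, was higher in Treg than in TN by 0.82 and than in GFPKO by 0.74, and its relative Rxrb was not called (-0.10 and 0.06). The co-repressor genes were not called, with Nab2 at 0.54 (adjusted p = 0.10) and Nab1 at -0.72 (adjusted p = 0.20) for Treg minus TN. Egr4 (0.02) and Srf (0.04) were not called either. Nfatc3 was lower in Treg than in GFPKO by 0.63. The Treg minus TN counts were 1 and 0 without TN replicate 1 or TN replicate 2, and 2 and 3 without GFPKO replicate 1. The Treg minus GFPKO counts of 1 and 1 were 0 and 0 without GFPKO replicate 1, 0 and 1 without any 1 of Treg replicates 2, 3 or 5, and 2 and 4 without GFPKO replicate 3.

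Inhibitors of receptor signalling that are linked to EGR2 and EGR3 moved both ways. Of 14 genes 2 rose and 2 fell in Treg against TN (28.6%, against 9.97% of all genes, median 0.18). In GFPKO against TN 1 rose and 1 fell (14.3%, against 5.66%, median 0.05). Lag3, an inhibitory receptor, went from 4.86 in TN to 6.44 in Treg and 8.13 in GFPKO, so that it was lower in Treg than in GFPKO by 1.69 (adjusted p = 3.6e-05). The cytokine signalling inhibitor gene Socs1 was higher in Treg by 1.49 against TN and by 0.86 against GFPKO. The death ligand gene Fasl fell by 1.41 in Treg and by 0.99 in GFPKO. Dgka, a diacylglycerol kinase that EGR2 is known to induce, was lower in Treg than in TN by 0.70 and than in GFPKO by 0.64. The ubiquitin ligase genes Cblb, Cbl, Rnf128 and Itch were not called in the 3 comparisons. The GFPKO minus TN counts were 3 and 1 without GFPKO replicate 1 or GFPKO replicate 3. The third gene lower in Treg than in GFPKO was the phosphatase gene Ptpn22 (by 0.59). Between these groups 1 was higher and 3 were lower in Treg (28.6%, against 9.43% of all genes). These counts were 0 and 2 without any 1 of Treg replicate 4, Treg replicate 5, GFPKO replicate 1 or GFPKO replicate 2, and 2 and 5 without GFPKO replicate 3.

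Most measured genes linked to NR4A factors in regulatory and chronically stimulated T cells rose in both groups, but this list was drawn up from knowledge of regulatory T cells and includes genes used to define them. Of 13 measured 11 rose in Treg against TN (median 2.15), where 6.54% of all genes were called higher. In GFPKO against TN 9 rose (median 1.48), where 2.64% were called higher, and 0 fell in either comparison. Foxp3 was not among the 11 in Treg (-0.01) but was among the 9 in GFPKO, and the inhibitory receptor gene Havcr2 was not called in either. In GFPKO Tox, Tox2 and Batf were not called either. Ctla4, an inhibitory receptor, rose by 4.35 in Treg and 3.86 in GFPKO, and Il2ra, which encodes an interleukin 2 receptor chain, by at least 5.19 and at least 4.42, since TN was at background. Ikzf2, which encodes the factor Helios, rose by 4.07 and 3.81. Between Treg and GFPKO 6 were higher and 1 lower in Treg (53.8%, against 9.43% of all genes). Entpd1 (1.41), Tnfrsf4 (1.11) and Batf (1.11) were among the higher, and the 1 lower gene was Foxp3. Batf rose over TN in Treg (0.87) and stood at -0.24 in GFPKO (adjusted p = 0.57).

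Cell isolation can itself induce early genes, and 11 heat shock and handling genes were measured for that reason. None was called in Treg against TN in limma, where 9.97% of all genes were called. The median was -0.18, and 2 of 11 had an unadjusted p under 0.05, as had 3623 of all 18193 genes. The means of Atf3 and Hspa1a lay below background in all groups. The part of isolation in the member values was not tested. In GFPKO against TN only Hspa1b was called (9.09% of the list, against 5.66% of all genes), lower by 2.59 (adjusted p = 0.047). This call was lost without any 1 of TN replicate 2, GFPKO replicate 2, GFPKO replicate 3 or Treg replicates 1, 2, 3 or 5. Between Treg and GFPKO only Hspe1 was called (9.09%, against 9.43%), higher in Treg by 0.43, and the call was lost without GFPKO replicate 1. The spread of Hspa1b was wide, at 7.84 ± 1.61 (SD, n = 3) for TN, 6.39 ± 0.71 (n = 5) for Treg and 5.24 ± 1.37 (n = 3) for GFPKO, and its Treg minus TN difference of -1.45 was not called (adjusted p = 0.22).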

How the data were processed

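Expression of CD4 T cells was measured on 1 Affymetrix array per sample (11 arrays). The deposited values are log2 RMA values made by the authors, per the submitters' processing notes. The RMA version is not given in the sources used here, and the log2 scale was read from the values (1.54 to 14.65). Of 45101 probe sets 34945 were kept. Left out were 64 controls, 932 with several symbols and 9211 not in the gene table, categories that overlap. The 18193 genes each took their brightest probe set. A linear model with a mean for each group used the 11 arrays together (limma 3.58.1, R 4.3.3), two-sided, with Benjamini-Hochberg adjustment over all genes. The fit was tested on simulated data. Every probe set was also fitted alone. Named genes were the 6 members, the called genes with the largest changes per list, partners of the members, and the 3 genes most correlated with each member. In list counts, "rose" and "fell" mean called. The members and lists were chosen with earlier results of these data known. Promoters came from a RefSeq table (GRCm38.p6) that matched 4 of 6 members. Array number limits the precision.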

Additional observations from a re-analysis of the deposited data

How the results depend on the processing

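Each of 18 combinations of member and comparison was refitted under 20 alternatives, and 327 of 360 values kept their direction and side of the threshold. Nr4a1 and Egr2 were called in all 20 for both comparisons with TN, at 1.05 to 1.34 and 1.14 to 1.40 for Treg and at 0.71 to 0.98 and 0.78 to 1.25 for GFPKO. Nr4a3 was called in 19 of 20 for Treg minus TN. Members called in GFPKO minus TN numbered 4 in place of 2 both among genes above the median only and with array weights, and in Treg minus GFPKO 2 in place of 0 with array weights. Leaving out each array in turn gave 3 members for Treg against TN, 2 to 3 for GFPKO against TN and 0 between Treg and GFPKO.

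Values that changed sign were all uncalled. Nr4a2 turned for Treg minus TN with centred arrays (-0.043), for GFPKO minus TN with the actin covariate (-0.0091) and, leaving out arrays, ranged from -0.042 to 0.17. For Treg minus GFPKO it turned with centred arrays (-0.14), array weights (-0.14) and the replicate block (-0.040), and ranged from -0.076 to 0.14 leaving out arrays. Egr3 for Treg minus GFPKO turned with centred arrays (-0.12) and array weights (-0.044) and ranged from -0.11 to 0.16, and Nr4a3 from -0.0077 to 0.37. The replicate block sets aside Treg replicates 4 and 5, which no other group has. For the other settings the cause was not tested. The largest interquartile range as the choice of probe set made Nr4a2 called for Treg minus TN (1.05, adjusted p = 0.0064), since it picks a dim probe set, and the mean of probe sets did too (0.37, adjusted p = 0.037).

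Genes called over all genes moved by over 1.5 times with array weights (3223, 5051 and 6756 in place of 1813, 1029 and 1716 for Treg against TN, GFPKO against TN and Treg against GFPKO). For GFPKO minus TN they were 562 with only those groups, 570 with the actin covariate, 644 without TN replicate 1 and 1868 without GFPKO replicate 3. For Treg minus GFPKO they were 811 with the actin covariate, 1134 without GFPKO replicate 1 and 3421 without GFPKO replicate 3. Early genes called were 20 and 18 with array weights when GFPKO was set against TN and against Treg, and 6 for the latter with the actin covariate. The alternatives for the other lists were chosen after seeing the data.

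Whether replicate numbers pair the arrays was not settled. Deviations of same-numbered arrays correlated between -0.22 and 0.51, and those of differently numbered arrays between -0.49 and 0.29. The highest value was that of Treg replicate 1 with GFPKO replicate 1. With the replicate block Egr3 was called for Treg minus TN (0.57, adjusted p = 0.031) and Nr4a3 for GFPKO minus TN (0.71, adjusted p = 0.048), and 1436, 1028 and 1049 genes were called over all genes. Replicates 4 and 5 exist in Treg alone, so in this fit they have no influence on any difference.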
